A study of Mus musculus with 16 samples.

Results

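Polycomb repressive complex 2 (PRC2) genes were followed across mouse ESC lines that differ in the SOX2 protein that sustains them. The 10 genes considered were *Ezh2*, *Ezh1*, *Eed*, *Suz12*, *Rbbp4*, *Mtf2*, *Phf19*, *Epop*, *Jarid2* and *Aebp2*, each found by its symbol in the probe annotation. Probes named 9 of the 10, and no probe named *Rbbp4*. All 9 passed the detection filter, among 9303 of the 16593 genes with a probe. Every line was a *Sox2*-null ESC line of the 129/Ola background that carries a mouse *Sox2* transgene repressible by doxycycline. SWT (2 clones, 4 and 5) was rescued with wild-type human *SOX2*, and S113 (2 clones, 4 and 5) and S95 (3 clones, 1, 2 and 4) with *SOX2* mutated in the HMG domain. The S113 mutation affects the contact with OCT4 on *Fgf4*-like composite motifs. The 3 clones labelled S95 were treated as the study's double mutant of the contact on *Utf1*-like motifs, since the study describes arrays of 3 clones of that mutant and none of a mutant that includes position 95. These 7 clones grew in 1 μg/mL doxycycline and in hygromycin at 300 μg/mL, which selects for the construct. TSS is 1 line, kept without doxycycline so that the mouse transgene stays on. RNA of each of the 8 lines was hybridized to 2 Illumina bead arrays, and the labels do not say whether these came from separate cultures.

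PRC2 methylates lysine 27 of histone H3, a mark of silent developmental genes. EZH2, or its less active relative EZH1, holds the methyltransferase site, and needs EED, which reads the mark, and SUZ12, the scaffold, for activity. RBBP4 and its relative RBBP7 bind histones. Accessory subunits divide the complex into a form with a Polycomb-like protein (MTF2, PHF19 or PHF1) together with EPOP or another partner, and a form with JARID2 and AEBP2. ESCs without a core subunit self-renew but derepress lineage genes and differentiate poorly.

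Levels are log2 values of background-corrected, quantile-normalized probe intensity, and a level of one probe cannot be set against that of another. The 16 arrays detected 48.6 to 52.5% of probes each. The arrays of a line correlated with r of 0.994 to 0.998 over the 9303 genes tested. Clones of 1 group differed more in S95 (median SD over genes 0.23) than in SWT (0.11) or S113 (0.13). S95 clone 2 stood apart from clones 1 and 4 (r = 0.947 and 0.959, against 0.991 between clones 1 and 4). For the *Sox2* probe, SWT was at 4.83 ± 0.07 and S113 at 7.85 ± 0.26 (SD over 2 clones each), S95 at 5.59 ± 0.66 (SD over 3 clones) and TSS at 6.39. The probe was detected on 2 of 4 SWT arrays, and the arrays of SWT clones 4 and 5 differed by 0.62 and 0.57. The probe cannot check the labels, because its place in the transcript is not given in the sources used here.

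To show the start sites of the genes that the results turn on, RefSeq windows (build GRCm38.p6) of 250 bases before to 50 bases after a start were searched on both strands. The words were CCAAT, the site of NF-Y, and TTTGGCGC and TTTCCCGC, forms of the E2F site. The 9 genes with an entry have 13 windows, and *Epop* has none. The first 265 bases of a window are shown for *Ezh2*, *Mtf2* (the upstream one of its pair) and *Phf19*, which were lower in S95, and for *Suz12*, a core gene that did not pass. Capitals mark the words searched for, on either strand.
Ezh2, chr6:47595016-47595280, minus strand: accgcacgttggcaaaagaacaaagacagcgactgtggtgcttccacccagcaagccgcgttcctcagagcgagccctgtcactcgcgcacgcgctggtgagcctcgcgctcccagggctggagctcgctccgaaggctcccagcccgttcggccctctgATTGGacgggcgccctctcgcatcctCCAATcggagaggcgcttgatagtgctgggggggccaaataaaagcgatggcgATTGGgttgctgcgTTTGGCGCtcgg
Mtf2, chr5:108065424-108065688, plus strand: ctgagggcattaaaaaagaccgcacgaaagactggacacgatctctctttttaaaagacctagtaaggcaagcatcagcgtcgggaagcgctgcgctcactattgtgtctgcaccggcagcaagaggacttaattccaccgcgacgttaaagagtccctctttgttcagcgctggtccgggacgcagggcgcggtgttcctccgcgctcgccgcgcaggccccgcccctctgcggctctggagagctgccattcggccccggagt
Phf19, chr2:34913962-34914226, minus strand: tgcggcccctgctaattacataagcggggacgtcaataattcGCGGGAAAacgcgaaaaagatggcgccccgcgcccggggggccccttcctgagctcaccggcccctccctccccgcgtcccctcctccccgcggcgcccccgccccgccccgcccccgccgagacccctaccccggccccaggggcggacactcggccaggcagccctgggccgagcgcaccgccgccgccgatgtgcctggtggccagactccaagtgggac
Suz12, chr11:79992856-79993120, plus strand: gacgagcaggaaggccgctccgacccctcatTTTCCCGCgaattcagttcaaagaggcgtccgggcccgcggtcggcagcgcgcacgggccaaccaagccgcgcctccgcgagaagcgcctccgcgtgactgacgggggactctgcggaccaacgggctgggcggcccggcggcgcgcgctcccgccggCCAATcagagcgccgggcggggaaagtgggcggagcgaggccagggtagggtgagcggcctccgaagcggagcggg
The *Ezh2* window holds CCAAT at 3 places, beginning 90, 64 and 11 bases before the start, and TTTGGCGC from base 4 after it. CCAAT is in 37.4% of all 32851 windows and in 8 of the 13 searched here, and TTTGGCGC in 0.51% of all and in 1 of the 13. TTTCCCGC is in 1.07% of all windows and in 2 of the 13, those of *Phf19* and *Suz12*. The upstream *Mtf2* window holds none of these words. The other *Mtf2* window, not shown, holds CCAAT beginning 98 bases before its start and from bases 14 and 46 after it. The *Hoxb1*-, *Utf1*- and *Fgf4*-like composite motifs of OCT4 and SOX2 are in 0.96%, 0.28% and 0.66% of all windows and in 0 of the 13. A match or its absence says only which letters are in a window.

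In S95, the methyltransferase *Ezh2* and the Polycomb-like genes *Mtf2* and *Phf19* fell, and *Epop* rose. *Suz12*, *Eed*, *Ezh1*, *Jarid2* and *Aebp2* did not pass the test. By limma, at an adjusted p under 0.05, 1 of the 9 genes was above SWT, where 11% of all genes tested were, and 3 were below, where 12.1% were. Without SWT clone 4 the counts over all genes dropped from 1022 higher and 1123 lower to 89 and 168, without clone 5 to 103 and 167, and 0 of the 9 passed. With arrays shifted to a common median instead of quantile normalized, the split over all genes moved to 1490 higher and 641 lower, and the same 4 PRC2 genes passed. The median log2 difference of the 9 was -0.37, against -0.01 over all genes. Of the 9 differences 6 were below 0, and in S113 against SWT 6 were also below 0 (median -0.04). In S113 against SWT 0 of the 9 passed, where 0% of all genes did. At an unadjusted p under 0.05 *Epop* and *Phf19* differed, 2 of 9, where 9.28% of all genes did. TSS against SWT also gave 0 of 9, where 0% of all genes passed, and 1 of 9 (*Phf19*) at an unadjusted p under 0.05, where 9.82% did. The comparisons with SWT share its 2 clones.

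**Figure D1:**
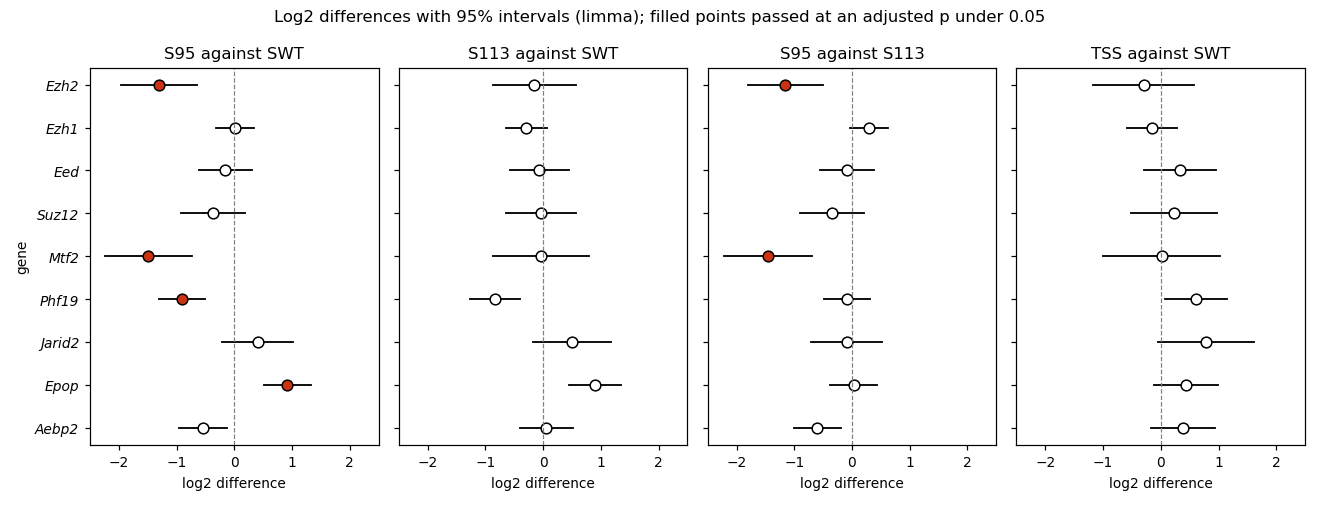
Log2 differences (horizontal axis) of the 9 measured PRC2 genes in the 4 comparisons, as limma estimates (points) with 95% intervals (lines), filled where the adjusted p was under 0.05. In S95 against SWT the intervals of *Ezh2*, *Mtf2* and *Phf19* lie below 0, like that of the unfilled *Aebp2*, and that of *Epop* lies above it, and in S95 against S113 only *Ezh2* and *Mtf2* are filled.

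*Ezh2*, which encodes the main catalytic subunit in ESCs (chromosome 6, 47530274 to 47595270), fell 2.48-fold in S95. Its level was 11.02 in both SWT clones, 10.88 and 10.85 in S113 clones 4 and 5, 10.13, 9.16 and 9.84 in S95 clones 1, 2 and 4, and 10.73 in TSS. All 3 S95 clones were below every other line, and the arrays of a line differed by at most 0.16. The difference from SWT was -1.31 (SE 0.27, 95% interval -1.96 to -0.65, limma adjusted p = 0.0207). Without SWT clone 4 or 5 the adjusted p was 0.122 each time, and without S95 clone 4 it was 0.0513. Over all alternatives the adjusted p ranged from 7.58e-05 to 0.122 and the difference from -1.52 to -0.86. The smallest size came from a second, dimmer *Ezh2* probe, which read 6.09 and 6.39 in SWT, 6.22 and 5.81 in S113, 5.55, 5.11 and 5.47 in S95 and 6.12 in TSS (adjusted p = 0.0301). On that probe too each S95 clone was below all other lines.

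*Ezh1*, the other catalytic gene, was near the detection limit, detected on 10 of 16 arrays and on 0 of 4 in S113. It read 4.93 and 4.72 in SWT, 4.77, 4.83 and 4.89 in S95, 4.58 and 4.49 in S113 and 4.67 in TSS. SWT and S95 overlapped, with a difference of 0.01 (95% interval -0.32 to 0.33). With S113 set at the lowest signal called detected, the SWT mean was 1.10-fold above it. This fold is not a minimum, since SWT was detected on 3 of 4 arrays. The S113 difference from SWT had a 95% interval of -0.64 to 0.07 (limma adjusted p = 0.614).

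*Suz12*, the scaffold, read 12.23 and 12.05 in SWT, 12.13 and 12.09 in S113, 12.08, 11.33 and 11.89 in S95 clones 1, 2 and 4, and 12.36 in TSS. S95 clone 1 lay within the SWT range and clone 2 was the lowest line. The S95 difference was -0.37 (SE 0.23, 95% interval -0.93 to 0.18, limma adjusted p = 0.264). *Eed* read 9.90 and 10.23 in SWT, 10.14 and 9.85 in S113, from 9.66 (clone 2) to 10.07 (clone 4) in S95 and 10.40 in TSS. Its groups overlapped except for the single TSS line, and the S95 difference of -0.16 had an interval of -0.62 to 0.31. *Rbbp7*, the histone-binding relative of *Rbbp4*, read 10.99 and 11.09 in SWT and 11.38, 10.37 and 10.82 in S95 clones 1, 2 and 4, so that the clones lay on both sides of SWT (difference -0.18, 95% interval -0.85 to 0.49). Of its 4 probes the dimmest differed from the rest, with 8.27, 7.33 and 8.33 in these clones against 7.21 and 7.25 in SWT.

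**Figure D2:**
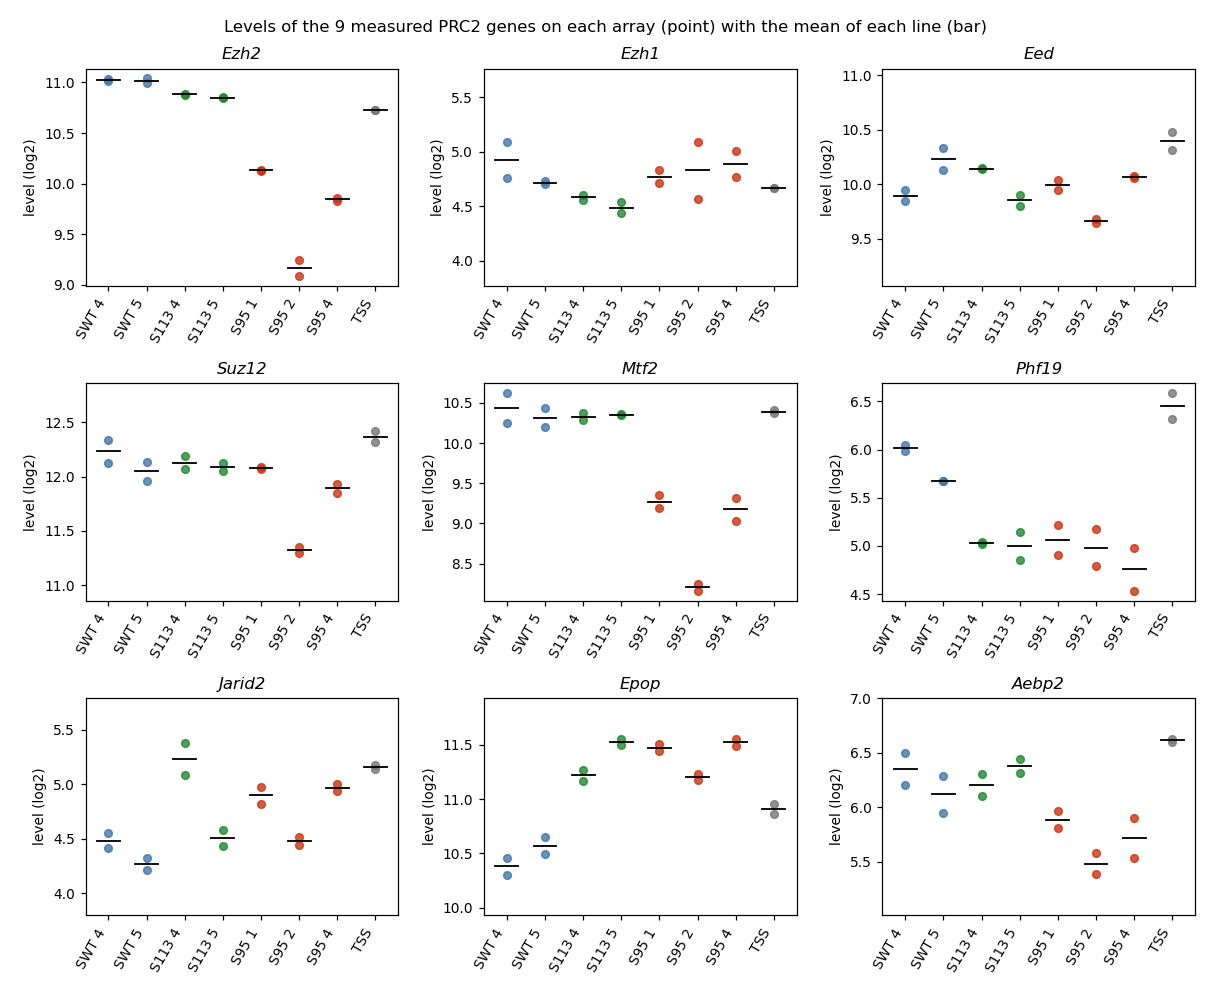
Level (log2, vertical axis) of each measured PRC2 gene on each of the 16 arrays (points) in the 8 lines, coloured by construct, with bars at the mean of a line. Axes span at least 2 log2 units and differ between genes. *Ezh2* and *Mtf2* are lowest in the 3 S95 clones, while *Phf19* is lower and *Epop* higher in all 5 mutant clones than in SWT and TSS.

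Among the Polycomb-like genes, *Mtf2* (chromosome 5, 108065660 to 108109219) fell 2.81-fold in S95. MTF2 binds unmethylated CpG-rich DNA and recruits PRC2 to it in ESCs. It read 10.43 and 10.32 in SWT, 10.33 and 10.35 in S113, 9.27, 8.21 and 9.17 in S95 clones 1, 2 and 4, and 10.39 in TSS. The 5 lines outside S95 lay between 10.32 and 10.43, and every S95 clone was more than 1 log2 unit below the lowest of them. The difference from SWT was -1.49 (SE 0.32, 95% interval -2.25 to -0.73, limma adjusted p = 0.0215). Its adjusted p was 0.133 without SWT clone 4 and 0.118 without clone 5, and ranged from 0.000335 to 0.133 over all alternatives.

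*Phf19* (chromosome 2, 34893752 to 34914353), whose protein reads lysine 36 methylation of histone H3, fell 1.88-fold in S95. It read 6.01 and 5.68 in SWT, 5.03 and 5.00 in S113, 5.06, 4.98 and 4.76 in S95 and 6.45 in TSS, and was detected on 15 of 16 arrays. All 5 mutant clones were below both SWT clones and TSS, a pattern of 1 of the 9 PRC2 genes and of 6.04% of all genes. The S95 difference was -0.91 (SE 0.17, 95% interval -1.31 to -0.51, limma adjusted p = 0.0142). The S113 difference was -0.83 (SE 0.18, 95% interval -1.27 to -0.39), with an adjusted p of 0.221. For this dim probe the S95 difference depended on the processing, at -1.62 in the deposited log2 values, which differ in more than 1 step, and -0.50 with a normexp offset of 50, and passed with both. The adjusted p was 0.110 without SWT clone 4 and 0.0618 without clone 5, within a range of 0.00872 to 0.110 over all alternatives.

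*Epop* (chromosome 11, 97627387 to 97629716) went the other way. EPOP joins the Polycomb-like form of PRC2 and binds elongin B and C. It read 10.38 and 10.57 in SWT, 11.22 and 11.52 in S113, 11.47, 11.20 and 11.52 in S95 clones 1, 2 and 4, and 10.91 in TSS. All 5 mutant clones were above both SWT clones and TSS, again a pattern of 1 of the 9 genes and of 6.35% of all genes. *Epop* rose 1.89-fold in S95 (log2 0.92, SE 0.17, 95% interval 0.51 to 1.33, limma adjusted p = 0.0152). In S113 the difference was 0.89 (SE 0.19, 95% interval 0.44 to 1.35, adjusted p = 0.203). It passed in S113 in 3 of 18 alternatives, 2 with the clone as a random block and 1 without S95 clone 2 (adjusted p = 0.0487), in a range of 0.0107 to 1. The S95 call was lost without SWT clone 4 (adjusted p = 0.115), SWT clone 5 (0.0821) or S95 clone 4 (0.0505), in a range of 0.000336 to 0.115.

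In the JARID2 form of the complex no gene passed. *Aebp2*, whose protein stabilizes PRC2 and binds nucleosomes, read 6.35 and 6.12 in SWT, 6.21 and 6.38 in S113, 5.89, 5.48 and 5.72 in S95 and 6.62 in TSS. The 3 S95 clones were below all other lines, yet the difference of -0.54 (SE 0.17, 95% interval -0.95 to -0.13) had a limma adjusted p of 0.0640. A second *Aebp2* probe read 5.15 and 4.98 in SWT, 5.24, 4.44 and 5.17 in S95 and 6.63 in TSS, so that the probes differed in the S95 comparison. *Jarid2*, whose protein helps to bring PRC2 to its targets, was detected on 8 of 16 arrays, on 0 of 4 in SWT and 4 of 6 in S95. It read 4.48 and 4.27 in SWT, 5.23 and 4.51 in S113, 4.90, 4.48 and 4.97 in S95 and 5.16 in TSS. With SWT set at the lowest detected signal, the means of S95, S113 and TSS were 1.04-fold, 1.10-fold and 1.35-fold above it. These folds are not a minimum rise, since S95 clone 2 and S113 clone 5 were themselves undetected. The 95% intervals of the differences from SWT all included 0, at -0.21 to 1.02, -0.18 to 1.17 and -0.04 to 1.61 (limma adjusted p = 0.271, 0.655 and 0.529).

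Every S95 clone was above every SWT clone for 1 of the 9 genes (*Epop*), where this held for 28.5% of all genes, and below for 4 (*Ezh2*, *Mtf2*, *Phf19*, *Aebp2*), where it held for 31.4%. For S113 the count above was 2 (*Epop*, *Jarid2*), against 26.3% of all genes, and the count below was 3 (*Ezh2*, *Ezh1*, *Phf19*), against 25.1%. *Jarid2* was detected on 0 of 4 SWT arrays and 2 of 4 S113 arrays, and *Ezh1* on 0 of 4 S113 arrays. For these genes the order of the clones rests on values near the detection limit. The S113 *Ezh2* clones lay close to SWT, with a difference of -0.15 and an interval of -0.87 to 0.56, and the interval for *Mtf2* was -0.86 to 0.79.

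The constructs were then compared directly. *Ezh2* was 2.23-fold and *Mtf2* 2.74-fold lower in S95 than in S113, with log2 differences of -1.15 (SE 0.27, 95% interval -1.81 to -0.50, limma adjusted p = 0.0484) and -1.46 (SE 0.32, 95% interval -2.21 to -0.70, adjusted p = 0.0407). They were the 2 of 9 genes that were lower, where 5.08% of all genes were, and 0 of 9 were higher, where 4.17% of all genes were. Both lay close to the threshold, and the *Ezh2* adjusted p ranged from 0.000519 to 0.261 and that of *Mtf2* from 0.000803 to 0.230 over the alternatives. *Ezh2* passed in 8 of 19 alternatives and *Mtf2* in 9 of 18. Leaving out any one of S113 clones 4 and 5, SWT clones 4 and 5 and S95 clone 4 removed both calls. *Phf19* and *Epop* showed no such separation, with differences of -0.08 (95% interval -0.48 to 0.32) and 0.03 (95% interval -0.38 to 0.44). *Aebp2* differed by -0.60 (95% interval -1.01 to -0.18, adjusted p = 0.0748).

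The TSS line stood on the SWT side for *Mtf2* (10.39) and above both SWT clones for *Phf19*, *Epop*, *Eed*, *Suz12*, *Jarid2* and *Aebp2*. The median of the 9 differences from SWT was 0.33. With 1 line, which the fit assumes to vary like the others, the *Phf19* difference was 0.61 (95% interval 0.07 to 1.14, limma adjusted p = 0.476), and *Ezh2* was at -0.30 (95% interval -1.17 to 0.58).

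Outside the 10 genes, *Ezhip*, which encodes an inhibitor of PRC2, fell in S95. It read 8.54 and 8.10 in SWT, 8.85 and 8.57 in S113, 6.60, 6.45 and 7.44 in S95 and 8.47 in TSS. The 3 S95 clones were the lowest lines, with differences of -1.49 from SWT (SE 0.32, limma adjusted p = 0.0213) and -1.88 from S113 (adjusted p = 0.0223). Of the demethylases that remove the PRC2 mark, *Kdm6b* rose in S95, from 8.63 and 8.62 in SWT to 9.41, 9.79 and 9.42 (log2 difference 0.91, SE 0.18, adjusted p = 0.0167), with 8.81 and 9.12 in S113 and 8.68 in TSS. A second *Kdm6b* probe was also higher in every S95 clone (6.81, 7.24 and 6.67) than in SWT (5.97 and 5.90). *Kdm6a* differed by -0.02 (95% interval -0.36 to 0.33). *Phf1* and *Lcorl* were detected on 0 arrays and *Lcor* on at most 3.

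**Figure D3:**
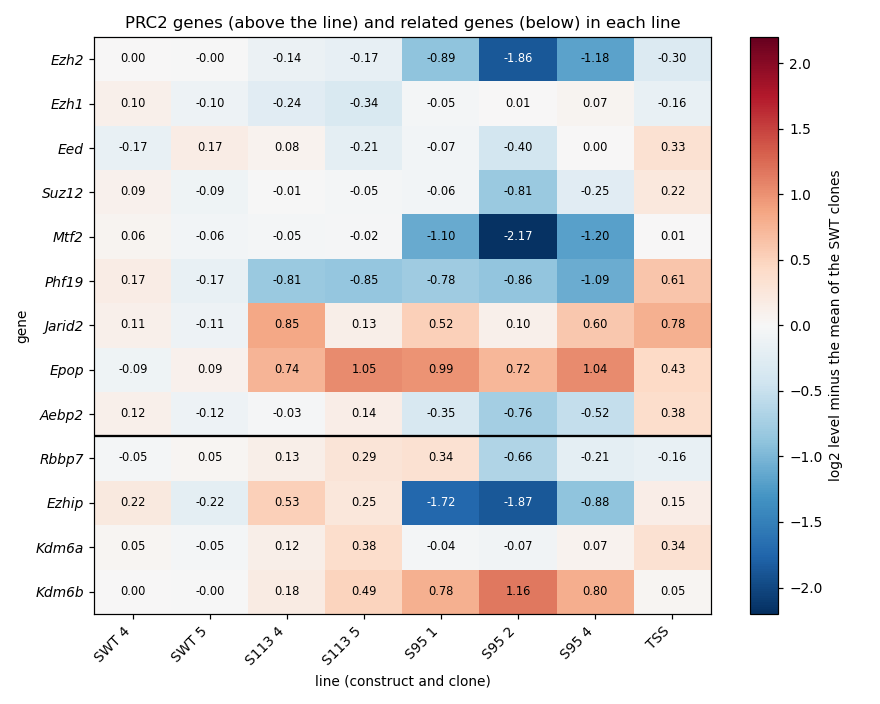
Log2 level minus the mean of the SWT clones (colour and printed value) for the 9 PRC2 genes, above the line, and 4 related genes, below it, in each of the 8 lines. S95 clone 2 has the lowest *Ezh2* (-1.86) and *Mtf2* (-2.17) and the highest *Kdm6b* (1.16).

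Within S95 the clones differed in depth of the change. Clone 2 was the lowest of the 8 lines for 5 of the 9 genes (*Ezh2*, *Mtf2*, *Suz12*, *Eed* and *Aebp2*), where 31.4% of all genes were lowest in it. The median of the 9 differences from SWT was -0.07 in clone 1, -0.76 in clone 2 and -0.25 in clone 4. *Phf19* and *Epop* did not follow this order, since the lowest *Phf19* and the highest *Epop* of the 3 were in clone 4. Without clone 2 the *Ezh2* difference was -1.03 (adjusted p = 0.00353) and the *Mtf2* difference -1.15 (adjusted p = 0.00175) by limma. Across the 8 line means, which share groups, *Ezh2* and *Mtf2* correlated with r = 0.986, but over the 5 lines without S95 r was 0.003. *Suz12* had r = 0.852 with *Ezh2* over 8 lines and -0.56 over those 5, and 0.884 and 0.709 with *Mtf2*. For *Kdm6b* and *Ezh2* r was -0.932 over 8 lines and -0.358 over the 5.

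The genes most like each PRC2 gene over the 8 line means were, for *Ezh2*, *Elp2* (r = 0.999), *Fanci* (0.998) and *Sin3a* (0.996). For *Mtf2* they were *Kat6b* (0.995), *Phc1* (0.995), a PRC1 subunit gene, and *Rsl24d1* (0.995). *Phf19* had less close neighbours in *Nampt* (0.949), *Spidr* (0.946) and *Ndufs3* (0.941), and *Epop* had *Trmt2a* (0.984), *Tceal5* (0.983) and *Fam222b* (0.967). These are the highest r picked from all genes tested, over line means that share groups, and they were not tested. *Elp2*, *Fanci* and *Sin3a* differed by -0.47, -0.97 and -1.17 in S95 against SWT.

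Genes of the companion complex PRC1, which binds the PRC2 mark and ubiquitinates histone H2A, were counted in S95 against SWT. Of 17 measured, 2 were higher, where 11% of all genes were, and 4 lower, where 12.1% were (median -0.09), with *Pcgf1* at -0.92, *Phc1* at -1.60, *Cbx2* at -0.73 and *Phc2* at 1.07 (limma adjusted p = 0.00834, 0.0251, 0.0346 and 0.0278). A list of 46 developmental genes known as PRC2 targets in ESCs had 22 measured, of which 6 rose and 0 fell (median 0.78), beside the same shares of all genes. Those named by the smallest p were *Gata3* (1.42), *Sox7* (3.78), *Gata6* (3.38) and *Sox17* (4.15), endoderm and trophectoderm regulators, with adjusted p of 0.0121, 0.0125, 0.0199 and 0.0229. The summed level of the 22 was 1345 to 2070 in SWT and 5500 to 7907 in S95. On no SWT array were 22 of the 46 detected and on no S95 array 14, with the neural regulators *Pax3* and *Pax6* among both. The neural regulators *Olig2* and *Neurod1* were undetected in S95 but not in SWT. The reverse held for *Gata4*, *Foxa2* and *Cdx2*, among others. A gene undetected in SWT could pass the filter through the S95 clones and could then hardly fall. The filter thus shaped the counts, the median and the sums. In S113 against SWT 0 of either list passed.

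Markers of other cell states are given beside the S95 differences from SWT, where 11% of all genes rose and 12.1% fell. Of 14 naive ESC markers measured, 6 fell and 1 rose in S95, and their median difference from SWT was -1.30, -2.85 and -1.14 in clones 1, 2 and 4. Their summed level was 22680 to 28070 in SWT, 22530 to 22560 in S113, 9774 to 14990 in S95 and 27990 in TSS. Of 16 extraembryonic endoderm markers, 12 rose and 0 fell, with a summed level of 2502 to 4771 in SWT, 5783 to 20910 in S113 and 31940 to 75910 in S95 and 4553 in TSS. *Gata4*, *Foxa2*, *Ttr* and *Afp* were undetected in SWT and in TSS. Such genes could pass the filter through mutant clones and could then hardly fall, which also holds for the trophectoderm list. *Gata6*, *Sox7* and *Sox17* are also in the list of PRC2 targets above, as is the trophectoderm marker *Gata3*. These lists therefore share some of their rises. Of 10 trophectoderm markers, 7 rose and 0 fell (2487 to 3203 in SWT, 2635 to 3486 in S113, 5432 to 9597 in S95 and 4692 in TSS), with *Elf5*, *Hand1* and *Plet1* undetected in S95. Of 5 embryonic fibroblast markers 0 passed (163 to 210 in SWT, 158 to 231 in S95), with a median difference of 0.51, against -0.01 over all genes. The median was 0.173, 0.774 and 0.535 in S95 clones 1, 2 and 4, while *Thy1* was at -0.78. *Col1a2* and *Col3a1* were undetected in SWT but not in S95, and *Postn*, *Lum*, *Twist2* and *S100a4* were undetected in both groups. Of 23 E2F and S phase genes, 3 fell, close to the 12.1% of all genes, and 0 rose (*E2f1* -1.48, *Cdc45* -0.67, *Mcm7* -1.20, limma adjusted p = 0.00858, 0.0269 and 0.0366), and their summed level was 30320 to 30600 in SWT and 20290 to 27590 in S95. S113 clone 5 had a median of 2.26 over the endoderm markers, against 3.18, 4.30 and 3.19 in S95 clones 1, 2 and 4. Its naive ESC marker median was -0.24, and its *Ezh2* and *Mtf2* lay 0.17 and 0.02 below SWT. The part of these cell states in the PRC2 differences was not tested, and in RNA of a whole culture fewer cells of a type and less RNA per cell cannot be told apart.

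**Figure D4:**
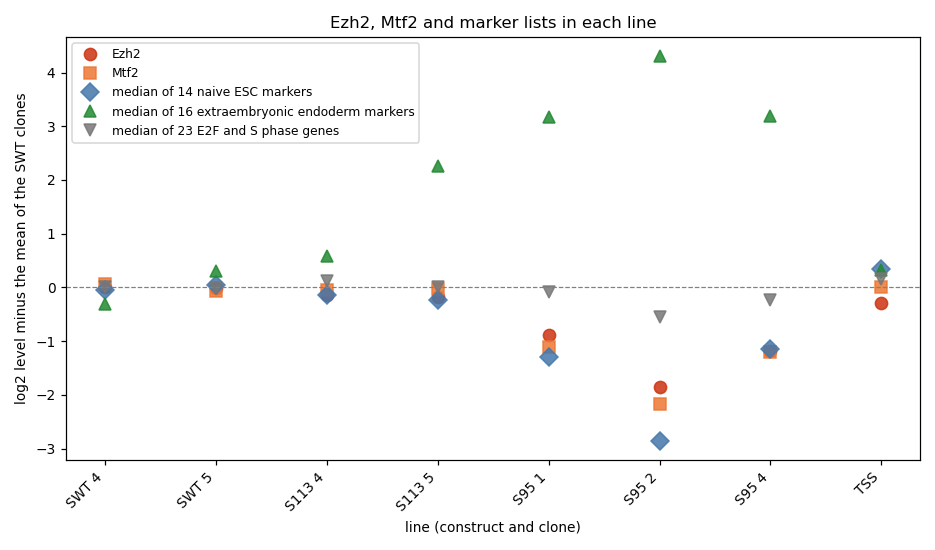
Log2 level minus the mean of the SWT clones (vertical axis) in each of the 8 lines for *Ezh2*, *Mtf2* and the medians of 3 gene lists. The naive ESC median and both PRC2 genes are lowest in S95 clone 2 (-2.85, -1.86 and -2.17), where the endoderm median is highest (4.30).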

How the data were processed

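The authors deposited scanner intensities, summarized per probe with BeadStudio 3.2, with a detection p-value for each probe. The authors also deposited normalized log2 values, for which the submitters' notes name RMA and lumi. S95 is the label of the clones taken as the study's S98/102 mutant. Members and gene lists were chosen with earlier results of these data known. Intensities were corrected, offset by 16, log2 transformed and quantile normalized (neqc, limma 3.58.1, R 4.3.3), and the offset shrinks differences of dim probes. Of 25697 probes, 23978 name a gene in the platform annotation, and 23962 of these matched RefSeq (GRCm38.p6) by Entrez identifier. A probe entered if 2 or more lines detected it on both arrays (detection p-value under 0.05), and the brightest stood for its gene. Arrays of a line were averaged, and 8 lines entered 1 limma fit with a mean per group, two-sided, with Benjamini-Hochberg adjustment over 9303 genes. The number of arrays limits the precision, and p-values measure only the spread between clones, pooled over the groups. Where a group was undetected on all its arrays, its fold was taken with that group set at the lowest detected signal of each array. Named were all members and related subunits, up to 4 genes of each other list with the smallest p, and the 3 genes most like a member. The test was run on simulated data first. Alternatives were other values, backgrounds, normalizations, filters, probe rules and fits, and leaving out each clone. A second kept probe was tried after seeing the data. In most line pairs replicate numbers did not pair arrays across lines (4 of 28 line pairs with r over 0.1, from -0.19 to 0.22).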

Additional observations from a re-analysis of the deposited data

Results flagged for a closer look

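On the *Ezh1* probe, 1 SWT array, the first of clone 4, read 5.09 (log2) and lay far above the others of its group, the nearest of which read 4.76. The gap was 0.848 of the range of the 4 SWT arrays. It was the 1 array singled out in 27 groups of arrays examined, and chance alone singles out about 1 in 20 groups. *Ezh1* was near the detection limit in all groups.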

How the results depend on the processing

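Of 647 values of single genes under the alternatives, 593 kept their direction and their side of the threshold, 30 lost a call, 3 gained one and 21 changed sign. In S95 against SWT the count of PRC2 genes higher was 0 to 1 and lower 0 to 3 when a clone was left out, both 0 without either SWT clone. In S113 against SWT 1 gene (*Epop*, difference 0.89) was higher with the clone as a random block, without a replicate block (adjusted p = 0.0107) and with a replicate block (0.0137), and 0 to 1 when a clone was left out. In S95 against S113 the count lower was 0 with the deposited values, a median shift, no detection filter or S95 clones 1 and 4 averaged, 1 with the mean of a gene's probes, and 0 to 2 when a clone was left out. Over all genes, the clone as a random block gave 106 higher and 112 lower in S113 against SWT, where 0 passed, 1566 and 1677 in S95 against SWT, and 1081 and 1171 in S95 against S113. Clones 1 and 4 averaged gave 106 and 153 in the last of these, where 388 and 473 passed. Leaving out a clone gave 89 to 1551 higher and 167 to 1632 lower in S95 against SWT, and 4 to 864 and 6 to 904 in S95 against S113. The cause was not tested. Signs changed only in differences that did not pass. *Mtf2* in S113 against SWT was 0.0094 with a median shift, *Epop* in S95 against S113 was -0.022 with clones 1 and 4 averaged, and *Aebp2* in S113 against SWT was -0.020 on its second probe. When a clone was left out, the differences whose sign changed ranged in S95 against SWT from -0.096 to 0.11 (*Ezh1*) and -0.32 to 0.013 (*Eed*). In S113 against SWT they ranged from -0.23 to 0.10 (*Eed*), -0.12 to 0.060 (*Suz12*), -0.094 to 0.023 (*Mtf2*) and -0.060 to 0.17 (*Aebp2*). In S95 against S113 they ranged from -0.23 to 0.054 (*Eed*), -0.14 to 0.0090 (*Phf19*), -0.45 to 0.27 (*Jarid2*) and -0.13 to 0.18 (*Epop*), and in TSS against SWT from -0.046 to 0.071 (*Mtf2*). The samples sharing a replicate number did not deviate together, so the number was not used to pair them, and an analysis with the replicate block changed no other call in these comparisons.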
